A study of Mus musculus with 12 samples.

Results

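Messenger RNA of 9 genes that govern vessel stability was followed in sorted mouse endothelial cells: the angiopoietins Angpt1 and Angpt2, the receptors Tek (TIE2) and Tie1, the phosphatase Ptprb (VE-PTP), and the sphingosine-1-phosphate (S1P) genes Sphk1, Spns2, S1pr1 and S1pr3. They were taken by symbol, from a list chosen with earlier results of these data known. All 9 were found among the 27825 genes of the deposited table. All 9 had a mean of at least 10 normalized counts and entered the tests. A normalized count is a read count divided by a size factor of its library, so that libraries of different depth can be compared.

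The 12 libraries form 4 groups of 3: mesentery (the membrane that carries the gut's vessels) and epididymal fat (the fat pad beside the testis), each from mice on chow or on a high fat diet (chow mesentery, high fat mesentery, chow epididymal fat and high fat epididymal fat below). Endothelial cells were labelled with YFP through ROSA26-eYFP+/+ and a tamoxifen-induced CreERT2 driven by Cdh5, the VE-cadherin gene, and were sorted by flow cytometry. Every group carried this genotype, was male, ate tamoxifen food from 6 weeks of age for 2 weeks, and was digested with actinomycin D, which blocks transcription. From 8 weeks of age the mice ate chow (5.8% fat) or high fat food (60% fat) for 12 to 13 weeks. Tissue of 6 mice was combined per sample, so a library gives no value for a single animal. The series title asks about endothelial heterogeneity and obesogenic food, and the comparisons below cover tissue, diet and their interaction.

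TEK is a receptor tyrosine kinase of endothelial cells. Angiopoietin-1, made mainly by cells around the vessel, activates it and keeps junctions tight, whereas angiopoietin-2, stored and released by endothelial cells, often opposes that signal. TIE1 modulates TEK as a partner receptor and VE-PTP removes its phosphate groups. S1P is made by sphingosine kinases such as SPHK1, leaves endothelial cells through the exporter SPNS2 and acts on receptors, of which S1PR1 stabilises junctions and S1PR3 couples to other G proteins and is found on endothelial and smooth muscle cells.

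Libraries held between 8348897 and 25397963 reads, and 3 reads corresponded to between 2.12 and 4.22 normalized counts, which covers counting error only. The labels speak of 2 independent replicates but the titles give 3 letters, A to C, so p-values measure the spread between libraries, which may be partly technical. The sample descriptions carry numbers from 50 to 53 in 8 libraries and 87 or 88 in the other 4, and the epididymal libraries numbered 87 and 88 stood apart: they had reads on 27558 and 27691 genes, against 23264 to 26779 in the other epididymal libraries. Values from the libraries numbered 50 to 53 alone (2 a group) are therefore given beside the main ones. All 10 pan-endothelial markers were present, with Cdh5 between 2172 and 4822 normalized counts. The markers of other cells were present too. Summed over 10 genes, macrophage markers ran from 1537 to 7607 normalized counts in chow mesentery, 4436 to 23919 in high fat mesentery, 5773 to 83324 in chow epididymal fat and 131131 to 329636 in high fat epididymal fat. The 10 mural (smooth muscle and pericyte) markers ran from 1489 to 1750, 2017 to 4497, 16664 to 26704 and 7069 to 13427 in the same order.

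The promoters of 4 genes that differed between tissues are shown first, as the sequence around which their transcription starts. Ptprb also differed, but no promoter was available for it. RefSeq promoters on GRCm38.p6, from 250 bases before to 50 bases after the start, were available for 5 of the 9 genes; the 4 below have 1 listed start. They lie at chr4:94739039-94739338 (plus strand, Tek), chr4:118489800-118490099 (minus strand, Tie1), chr11:72474978-72475277 (minus strand, Spns2) and chr13:51408368-51408667 (plus strand, S1pr3). Capitals mark matches, on either strand, to core motifs of factor families known in endothelium: CAGGAA or CCGGAA for ETS factors, AGATAA for the GATA family, CCACCC for KLF factors and GTAAACA for FOXO factors. None of these motifs contains another.
Tek: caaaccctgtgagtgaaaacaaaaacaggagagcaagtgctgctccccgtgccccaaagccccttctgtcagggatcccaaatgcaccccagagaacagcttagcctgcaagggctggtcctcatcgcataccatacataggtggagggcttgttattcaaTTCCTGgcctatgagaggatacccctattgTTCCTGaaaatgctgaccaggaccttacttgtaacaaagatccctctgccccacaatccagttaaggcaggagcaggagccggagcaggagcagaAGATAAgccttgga
Tie1: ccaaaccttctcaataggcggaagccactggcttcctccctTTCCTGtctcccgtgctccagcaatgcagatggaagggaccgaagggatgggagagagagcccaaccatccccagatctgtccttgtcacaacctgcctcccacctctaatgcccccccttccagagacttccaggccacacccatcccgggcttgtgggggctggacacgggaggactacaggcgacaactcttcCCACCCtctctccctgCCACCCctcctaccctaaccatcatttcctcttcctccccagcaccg
Spns2: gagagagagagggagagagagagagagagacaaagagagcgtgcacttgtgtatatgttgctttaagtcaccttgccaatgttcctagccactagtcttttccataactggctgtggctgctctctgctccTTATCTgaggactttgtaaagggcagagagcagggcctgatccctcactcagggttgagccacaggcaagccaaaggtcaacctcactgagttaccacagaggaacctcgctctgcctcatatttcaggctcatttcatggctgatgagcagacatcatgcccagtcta
S1pr3: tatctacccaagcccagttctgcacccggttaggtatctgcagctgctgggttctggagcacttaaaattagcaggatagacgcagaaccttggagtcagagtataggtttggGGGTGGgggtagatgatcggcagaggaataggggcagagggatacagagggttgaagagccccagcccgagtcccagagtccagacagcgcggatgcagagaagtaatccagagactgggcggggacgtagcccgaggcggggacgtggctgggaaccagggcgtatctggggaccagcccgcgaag
The Tek window held CAGGAA on the reverse strand at 2 places, beginning 89 and 59 bases before the start, and AGATAA after it. The Tie1 window held CAGGAA once and CCACCC on both sides of the start, the Spns2 window AGATAA once, and the S1pr3 window CCACCC once. Of 32544 RefSeq promoter windows of this length, 30.5% held CAGGAA, 15.0% CCGGAA, 11.2% AGATAA, 31.6% CCACCC and 3.66% GTAAACA. Such matches are descriptions of the letters and not binding sites.

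The tissue comparison asked how these genes differed between epididymal and mesenteric endothelial cells on each diet. Tek, Tie1, Ptprb and Spns2 were lower in epididymal fat and S1pr3 was higher, on both diets. S1pr1, Angpt1, Angpt2 and Sphk1 did not pass the test on either diet. In all, 5 of the 9 genes passed on chow (limma, adjusted p under 0.05), where 12.8% of the 22238 genes tested did: 4 were lower (5.47% of all genes) and 1 higher (7.32%). On high fat the same split of 5 was found, where 8.34% of all genes passed, 3.43% lower and 4.91% higher. Averaged over the diets, the test was passed by 5 of 9 genes and by 21.8% of all genes, 9.05% lower and 12.8% higher. The 3 libraries of each tissue did not overlap for 7 of the 9 genes on chow (28.7% of all genes) and for 5 on high fat (26.4%), and the 6 libraries of each tissue did not overlap for 5 (10.5%). The count rested in part on single libraries: on chow it was 3 without mesentery replicate A or B or without epididymal replicate A, and on high fat it was 3 without mesentery replicate B or without epididymal replicate C. With edgeR on the recovered reads it was 3 on each diet, and with DESeq2 it was 5 on each.

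**Figure D1:**
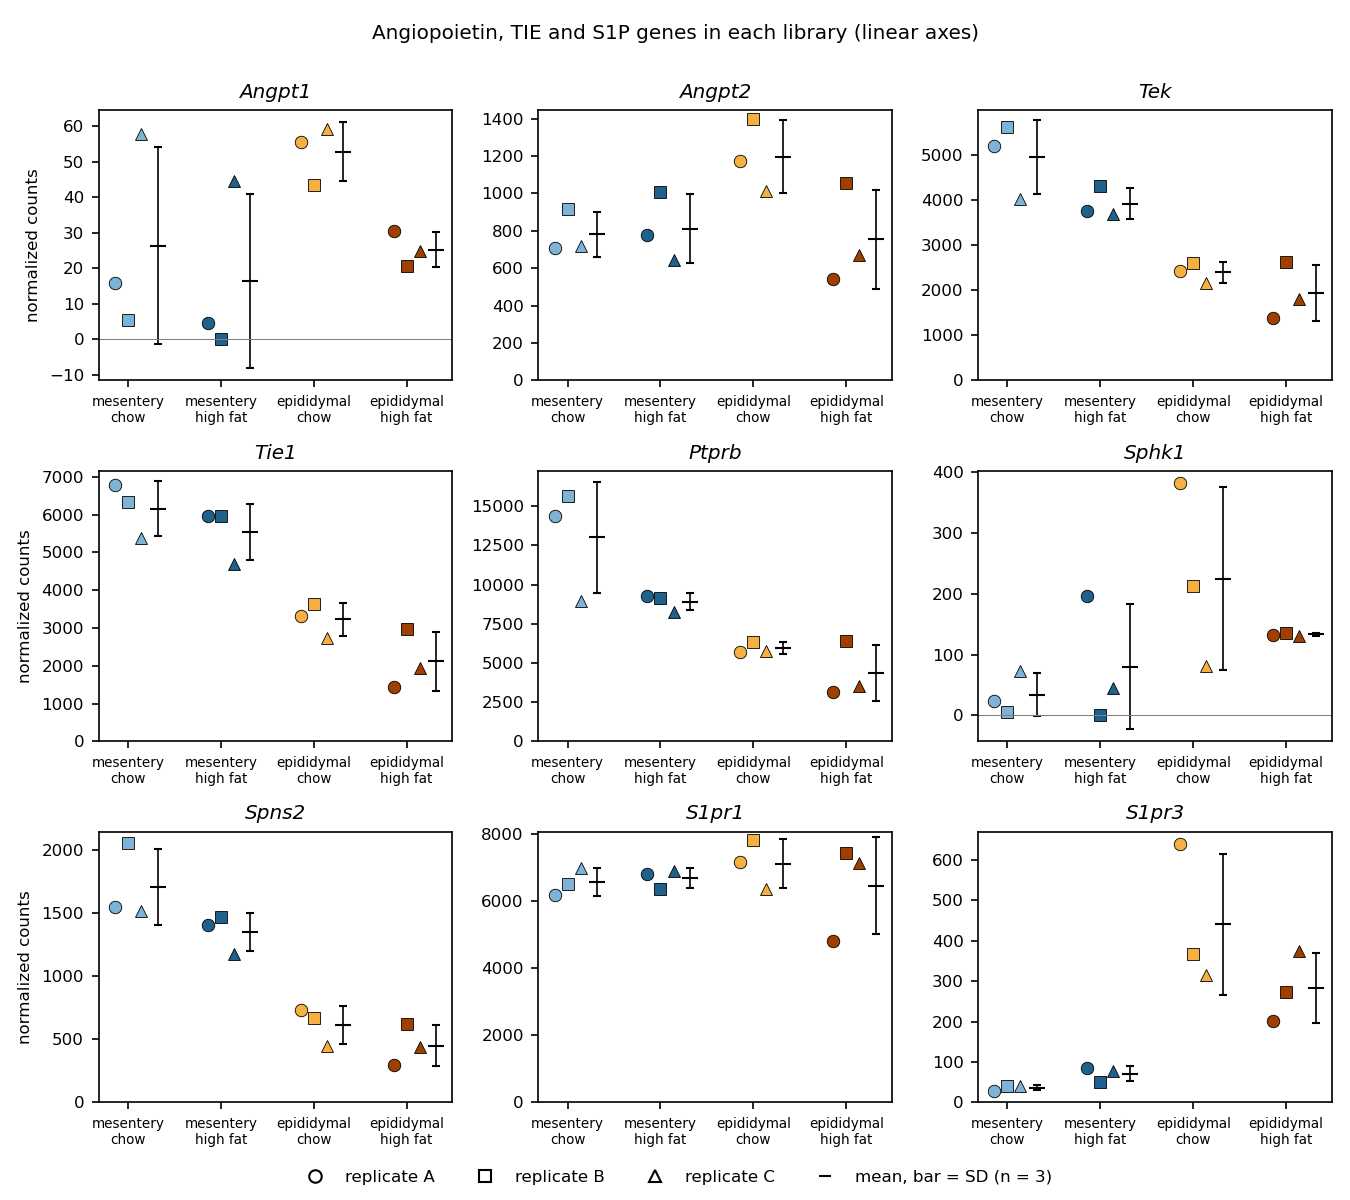
Normalized counts of each gene in every library (linear axes), by tissue and diet; marker shapes give replicates A, B and C, and bars give the mean and SD of 3 libraries. Tek, Tie1, Ptprb and Spns2 are lower and S1pr3 is higher in all 6 epididymal libraries than in all 6 mesenteric ones, while S1pr1 lies between 4806 and 7833 in every group.

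The ligands differed in level and in spread. Angpt1 was sparse, with 377 reads over the 12 libraries. It stood at 15.9, 5.38 and 57.7 normalized counts in chow mesentery (replicates A, B and C, in this order throughout), 4.68, 0 and 44.5 in high fat mesentery, 55.6, 43.4 and 59.2 in chow epididymal fat, and 30.4, 20.6 and 24.8 in high fat epididymal fat. Mesentery replicate C lay above the other mesenteric libraries on both diets, and the tissues overlapped on both. The tissue difference, epididymal minus mesentery, was 1.53 on the log2(normalized count + 1) scale on chow (SE 1.20, adjusted p 0.484) and 2.03 on high fat (SE 1.20, adjusted p 0.389).

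Angpt2 was at 707, 918 and 718 normalized counts in chow mesentery, 779, 1008 and 642 in high fat mesentery, 1176, 1400 and 1011 in chow epididymal fat, and 542, 1053 and 669.6 in high fat epididymal fat. On chow all 3 epididymal libraries lay above all 3 mesenteric ones, but the log2 difference of 0.61 (SE 0.25) did not pass over all genes (adjusted p 0.141). On high fat the groups overlapped, with a log2 difference of -0.13 (95% interval -0.68 to 0.41). The Angpt2 difference on chow was 0.69 and passed (adjusted p 0.0292) when the libraries were set to the same level of the pan-endothelial markers, a scaling under which the high fat value turned to 0.32.

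The log2 ratio of Angpt2 to Angpt1 was taken within each library, with 1 added to both normalized counts, so it still depends on scaling where Angpt1 is low. The ratio averaged 5.39 ± 1.78 in chow mesentery, 6.97 ± 3.08 in high fat mesentery, 4.48 ± 0.46 in chow epididymal fat and 4.81 ± 0.75 in high fat epididymal fat (SD, n = 3). The mesenteric ratios ran from 3.61 to 9.98, the highest in the high fat library with no Angpt1 read. None of the 4 group differences passed a two-sided exact permutation test, with p between 0.4 and 0.6, and 3 libraries against 3 cannot go below 0.1.

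Tek was at 5187, 5613 and 4024 normalized counts in chow mesentery, 3751, 4313 and 3680 in high fat mesentery, 2414, 2601 and 2155 in chow epididymal fat, and 1388, 2610 and 1794 in high fat epididymal fat. Every epididymal library lay below every mesenteric library. Tek was lower in epididymal fat by a log2 difference of -1.04 on chow (SE 0.22, adjusted p 0.00784), with mesentery 2.05-fold higher, and of -1.06 on high fat (SE 0.22, adjusted p 0.0102). In bulk samples, fewer cells of a type and less RNA per cell cannot be told apart. The Tek differences were -1.11 and -0.88 from the libraries numbered 50 to 53 alone. The chow call held in 18 of 18 alternatives and the high fat call in 15 of 18. The latter was lost with edgeR (adjusted p 0.0787), without mesentery replicate B and without epididymal replicate C.

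Tie1 showed the same direction. Its values were 6775, 6332 and 5375 normalized counts in chow mesentery, 5962, 5964 and 4698 in high fat mesentery, 3307, 3625 and 2742 in chow epididymal fat, and 1437, 2971 and 1934 in high fat epididymal fat. The 6 epididymal libraries again lay below the 6 mesenteric ones. The log2 difference of Tie1 was -0.94 on chow (SE 0.24, adjusted p 0.0218) and -1.45 on high fat (SE 0.24, adjusted p 0.00259), a level 2.72-fold higher in high fat mesentery. The change of this Tie1 difference with diet was -0.51 (SE 0.34, adjusted p of 1.00 over all genes). In the libraries numbered 50 to 53 the Tie1 differences were -0.92 and -1.14. The high fat call held in 18 of 18 alternatives and the chow call in 13 of 18. The latter was lost with edgeR (adjusted p 0.0998) and without mesentery replicate A or B or epididymal replicate A or C.

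Ptprb, which encodes the phosphatase of TEK, was at 14400, 15629 and 8973 normalized counts in chow mesentery, 9265, 9145 and 8279 in high fat mesentery, 5719, 6359 and 5740 in chow epididymal fat, and 3169, 6420 and 3545 in high fat epididymal fat. The tissues did not overlap, though chow mesentery replicate C lay closer to the high fat mesentery libraries than to the other chow ones. The log2 difference of Ptprb was -1.09 on chow (SE 0.27, adjusted p 0.0184) and -1.09 on high fat (SE 0.27, adjusted p 0.0262). It was -1.32 and -0.87 from the libraries numbered 50 to 53, where the high fat value missed the threshold (adjusted p 0.0661). Both Ptprb calls were lost with edgeR (adjusted p 0.0632 and 0.13). The chow call held in 13 of 18 alternatives and was also lost without mesentery or epididymal replicate A or B. The high fat call held in 12 of 18 and was also lost without mesentery replicate A or B or epididymal replicate A or C.

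**Figure D2:**
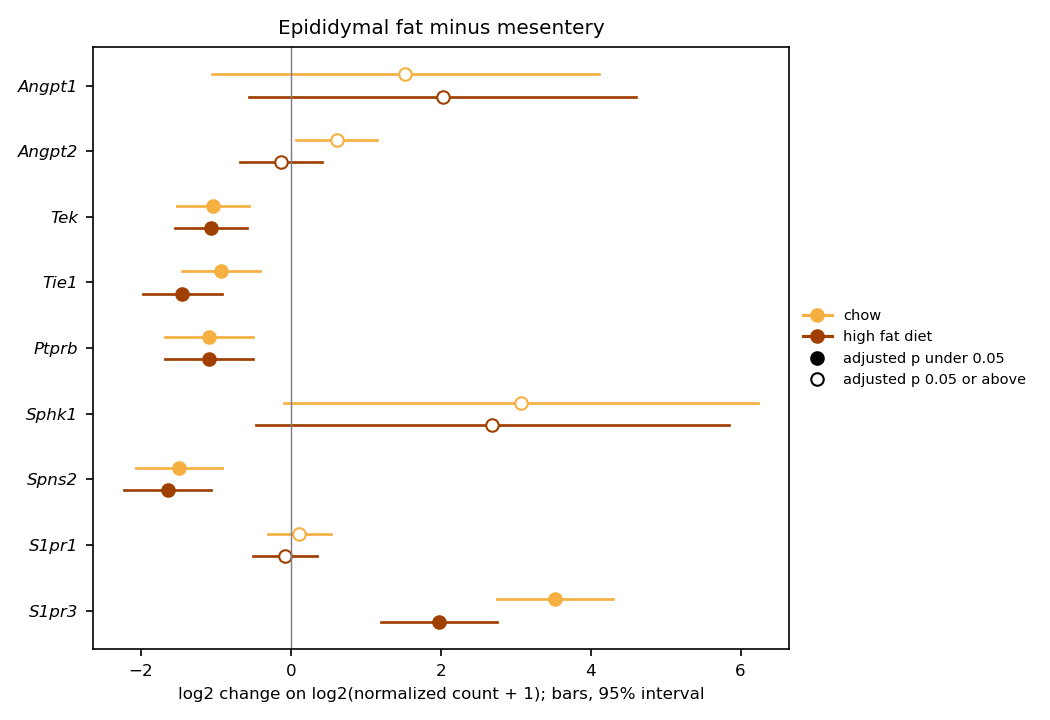
Epididymal minus mesentery difference of each gene on the log2(normalized count + 1) scale, on chow and on high fat; points are limma estimates over 3 libraries a group, bars are 95% intervals and filled points have an adjusted p under 0.05. Tek, Tie1, Ptprb and Spns2 lie left of 0 and S1pr3 right of 0 on both diets, and the intervals of Angpt1 and Sphk1 are the widest.

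In the S1P genes, Sphk1, the kinase that makes S1P, varied most between libraries. It was at 22.8, 5.38 and 73.2 normalized counts in chow mesentery, 196, 0 and 44.5 in high fat mesentery, 382, 213 and 80.7 in chow epididymal fat, and 133, 136 and 130.2 in high fat epididymal fat. The tissues were separate on chow and overlapped on high fat, through mesentery replicate A, which stood above all 3 epididymal libraries. The log2 difference of Sphk1 was 3.07 on chow (SE 1.46, adjusted p 0.211) and 2.69 on high fat (SE 1.46, adjusted p 0.337). Averaged over the diets it was 2.88 (SE 1.03, adjusted p 0.0643). Without high fat mesentery replicate B, which had no Sphk1 read, the high fat difference was 0.50.

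The Sphk1 difference varied widely among the sample numbers. Between the libraries that share a number it was 4.01 for number 50, 5.07 for 51, 7.10 for 52 and 1.53 for 53, but 0.14 for 87 and -0.56 for 88. The value for 52 rests on a mesenteric library with no Sphk1 read. From the libraries numbered 50 to 53 the mean over diets was 4.43 and passed (adjusted p 0.0103), and 8 of 23 alternatives in all gave a call.

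Spns2, the S1P exporter, was at 1546, 2055 and 1521 normalized counts in chow mesentery, 1404, 1469 and 1177 in high fat mesentery, 728, 669 and 445 in chow epididymal fat, and 292, 624 and 435 in high fat epididymal fat. All 6 epididymal libraries lay below all 6 mesenteric ones. The log2 difference of Spns2 was -1.49 on chow (SE 0.27, adjusted p 0.00269) and -1.64 on high fat (SE 0.27, adjusted p 0.00217), with mesentery 2.81-fold and 3.12-fold higher. With the libraries numbered 50 to 53 alone the Spns2 differences were -1.35 and -1.33. Exons of Spns2 overlap those of Mybbp1a on the other strand in the GENCODE M21 annotation, and whether counting used strand is not given in the sources used here. Mybbp1a had a mean of 305 normalized counts, and how its reads were split from those of Spns2 was not tested. The same holds for Angpt1 with Gm17473 (0 to 90.1 normalized counts), Sphk1 with Gm29292 (0 to 28.2) and S1pr3 with Gm32834 (0 to 41.6). The highest Gm17473 value lay in chow mesentery replicate C, the mesenteric library highest in Angpt1, and the highest Gm32834 value in high fat mesentery replicate B, where S1pr3 stood at 49.9.

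S1pr1, the junction-stabilising receptor, was at 6179, 6522 and 7006 normalized counts in chow mesentery, 6802, 6363 and 6910 in high fat mesentery, 7165, 7833 and 6377 in chow epididymal fat, and 4806, 7454 and 7141 in high fat epididymal fat. Epididymal replicate A on high fat lay below the other 11 libraries. The tissue difference on the log2 scale was 0.11 on chow (95% interval -0.31 to 0.54, adjusted p 0.78) and -0.08 on high fat (95% interval -0.50 to 0.35, adjusted p 0.915). With the pan-endothelial markers set to the same level, the S1pr1 differences were 0.19 and 0.38.

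S1pr3 was at 28.5, 40.3 and 39.4 normalized counts in chow mesentery, 85.1, 49.9 and 77.1 in high fat mesentery, 639, 368 and 315 in chow epididymal fat, and 202, 274 and 374 in high fat epididymal fat. Every epididymal library lay above every mesenteric one. The log2 difference of S1pr3 was 3.52 on chow (SE 0.36, adjusted p 4.11e-05), or 11.5-fold, and 1.98 on high fat (SE 0.36, adjusted p 0.00423), or 3.95-fold. From the libraries numbered 50 to 53 the S1pr3 differences were 3.80 and 2.35. The difference between the diets in this contrast was -1.54 (SE 0.51). It had an unadjusted limma p of 0.00927 and did not pass over all genes (adjusted p 0.739).

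Other cell types moved with the tissue. Of the 10 mural markers, 8 passed as higher in chow epididymal fat and 5 on high fat, and their median log2 differences were 3.51 and 2.39, against -0.08 and 0.06 over all genes. Pdgfrb, a pericyte receptor, averaged 17.2, 35.7, 627 and 343 normalized counts in mesentery of chow and high fat mice and epididymal fat on chow and high fat. On chow the median differences were also above 0 for the adipocyte markers (3.57, 6 of 6 passing as higher), the lymphatic markers (3.70, 5 of 7), the mesothelial markers (3.28, 4 of 5), the macrophage markers (2.99, 4 of 10) and the fibroblast markers (2.28, 7 of 8). On high fat they were 4.17 for macrophage (7 of 10), 3.70 for fibroblast (8 of 8), 2.49 for lymphatic (0 of 7), 1.79 for mesothelial (1 of 5) and 0.67 for adipocyte markers (0 of 6). In the lymphatic list 1 marker, Flt4, passed as lower on both diets. Flt4 averaged 914 and 644 normalized counts in mesentery of chow and high fat mice and 527 and 349 in epididymal fat. Summed over 6 genes, the adipocyte markers ran from 3899 to 8618 normalized counts in mesentery, 63085 to 85648 in chow epididymal fat and 3938 to 13910 in high fat epididymal fat. Markers of vessel types moved as well. On chow 3 of 6 arterial markers passed, 1 higher and 2 lower, and 3 of 5 venous markers, 2 higher and 1 lower. Of the 4 capillary markers 1 passed, as higher. On high fat 1 of each list passed, higher for arterial and capillary and lower for venous. Of all genes, 12.8% and 8.34% passed on the 2 diets. The part of these cells' RNA in the values of the 9 genes was not tested. The pan-endothelial markers had median differences of -0.29 on chow and -0.67 on high fat, with 3 and 5 of 10 passing as lower, beside 5.47% and 3.43% of all genes, and 1 passing as higher on each diet. That 1 was Cldn5, a tight junction gene, at 886 ± 438 and 3464 ± 2463 normalized counts in mesentery of chow and high fat mice and 15985 ± 4164 and 16695 ± 5009 in epididymal fat (SD, n = 3). Pecam1, a junction protein of endothelial cells, averaged 12329 and 10018 normalized counts in mesentery of chow and high fat mice, and 6619 and 5083 in epididymal fat.

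With every library set to the same pan-endothelial level, a scaling that moves the median tissue difference of all genes on high fat from 0.06 to 0.52, Tek differed by -0.96 on chow and -0.61 on high fat. Tie1 then differed by -0.86 and -0.99, Ptprb by -1.01 and -0.64, Spns2 by -1.41 and -1.19 and S1pr3 by 3.60 and 2.44. All 10 of these values still passed the test, but on chow the scaling changed little: Tek moved only from -1.04 to -0.96. On chow the scaling moved the median of all genes from -0.08 to 0.005. The level was the mean log2 value of the 10 pan-endothelial markers, among them Cldn5, which was higher in epididymal fat. On chow 5 of the 10 markers lay below 0 and 5 above, with a median of -0.29. The rise of Cldn5, from 886 to 15985 on chow and from 3464 to 16695 on high fat, offset lower markers in that mean. The level is therefore no clean measure of endothelial content, and on chow the scaling could remove little of a general endothelial decline. A level without Cldn5 was not tested. The part of other cell types in these values was not tested.

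**Figure D3:**
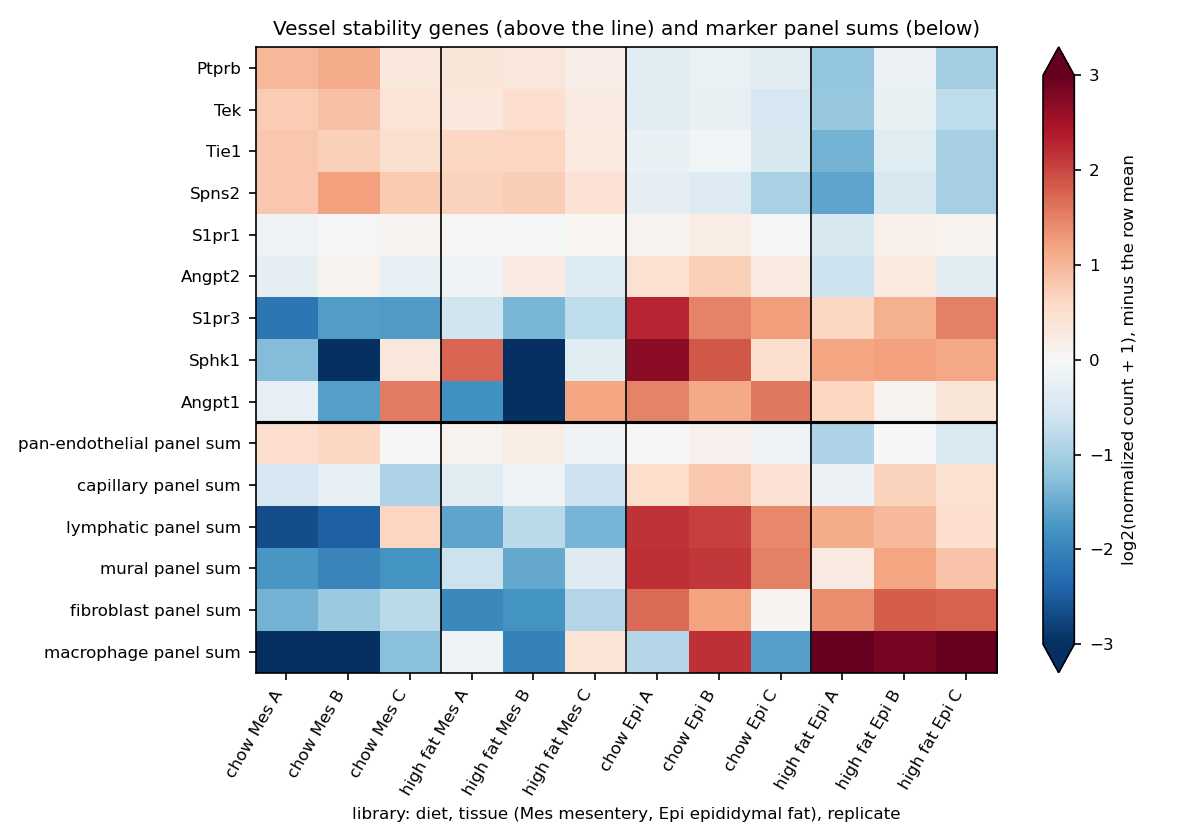
Colour shows log2(normalized count + 1) minus the row's mean over the 12 libraries, for the 9 genes (above the line) and for the summed markers of 6 cell panels (below it); the scale is clipped at 3 and -3. Ptprb, Tek, Tie1 and Spns2 are red in mesentery and blue in epididymal fat, while S1pr3 and the lymphatic, mural and fibroblast sums run the other way apart from single libraries such as chow mesentery replicate C in the lymphatic row.

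The diet comparison asked what high fat food changed in each tissue. None of the 9 genes passed in mesentery, where 0.0135% of all genes did (3 of 22238), or in epididymal fat, where 0.549% did. At an unadjusted limma p under 0.05 there was 1 of the 9 genes in mesentery, S1pr3, beside 6.15% of all genes, and 2 in epididymal fat, Angpt2 and Tie1, beside 6.94%. edgeR and DESeq2 also gave 0 calls among the 9 genes in both tissues. Without chow mesentery replicate C, 37 genes passed in mesentery, and none of the 9 was among them.

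S1pr3 in mesentery had a high fat minus chow log2 difference of 0.93 (SE 0.36, adjusted p 0.711), and its groups did not overlap, as for 9.61% of all genes. Spns2 was the other gene whose mesenteric groups did not overlap, with a log2 difference of -0.33 (SE 0.27, adjusted p 0.94). The mural sum, 1489 to 1750 on chow and 2017 to 4497 on high fat, was also separate in mesentery, and its part in the S1pr3 value was not tested. In epididymal fat S1pr3 overlapped between diets, with a log2 difference of -0.61 (SE 0.36, adjusted p 0.944).

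In epididymal fat all 9 point estimates were below 0, from -1.04 for Angpt1 to -0.16 for S1pr1, with a median of -0.51 against 0.10 over all genes. Angpt2 had a log2 difference of -0.71 (SE 0.25, adjusted p 0.39) and Tie1 of -0.66 (SE 0.24, adjusted p 0.417). Ptprb was at -0.51 (SE 0.27, adjusted p 0.858) and Tek at -0.35 (SE 0.22, adjusted p 0.993). Other cells moved in this contrast as well: the median was 2.52 for the macrophage markers (10 of 10 above 0, 0 passing), 1.61 for fibroblast (2 of 8 passing as higher), -2.21 for adipocyte (3 of 6 passing as lower) and -1.03 for mural markers (10 of 10 below 0, 1 passing). Of all genes, 0.549% passed in this contrast in either direction. The part of these other cells in the 9 estimates was not tested. Angpt1 alone had groups that did not overlap there, as 13.5% of all genes did. The 10 pan-endothelial markers, which share no gene with these 9, had a median of -0.51 in the same contrast. Set to the same level of those markers, the 9 genes had a median of -0.04 and all genes one of 0.57, and Tek and S1pr1 turned to 0.12 and 0.31.

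Replicate A, numbered 88, was the lowest of the 3 epididymal libraries on high fat for Tek, Tie1, Angpt2, Ptprb, S1pr1, S1pr3 and Spns2. Its pan-endothelial sum of 43946 was also the lowest of the 12, while replicate B reached 84514. From the libraries numbered 50 to 53 the diet differences in epididymal fat were -0.61 for Angpt2, -0.53 for Tie1, -0.34 for Ptprb, -0.21 for Tek and -0.04 for S1pr1.

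**Figure D4:**
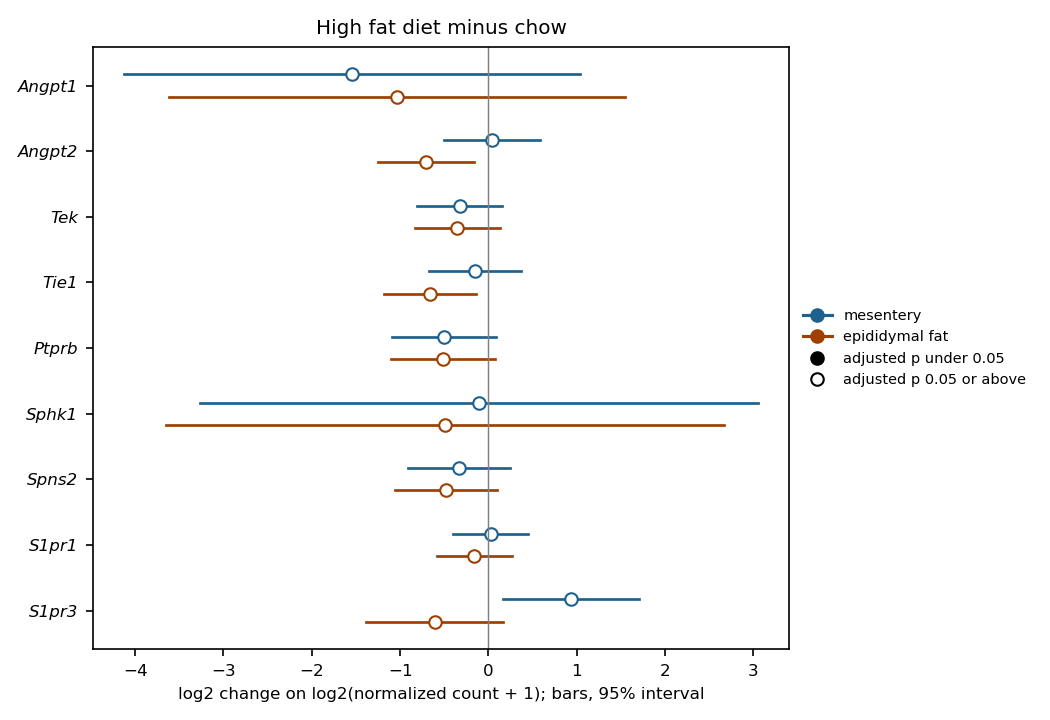
High fat minus chow difference of each gene on the log2(normalized count + 1) scale in mesentery and in epididymal fat; points are limma estimates over 3 libraries a group, bars are 95% intervals and open points have an adjusted p of 0.05 or above. No point is filled, all 9 epididymal points lie left of 0, and S1pr3 lies at 0.93 in mesentery and -0.61 in epididymal fat.

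Averaged over the tissues, diet differences passed in 0 of the 9 genes and in 0.549% of all genes, and at an unadjusted limma p under 0.05 there were 3, beside 8.31% of all genes: Ptprb (log2 difference -0.51, SE 0.19, adjusted p 0.42), Tie1 (-0.41, SE 0.17, adjusted p 0.508) and Tek (-0.34, SE 0.16, adjusted p 0.601). A diet effect that differed between the tissues passed in 0 of the 9 genes, 0.0045% of all genes (1 of 22238), and edgeR and DESeq2 gave 0 as well. S1pr3 was the 1 gene of the 9 with an unadjusted limma p under 0.05 there, beside 4.71% of all genes. The tissue and diet contrasts share libraries, so their values are not independent of each other.

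The wider angiopoietin and TIE list held 18 genes, 17 of them tested. On chow 4 passed, 3 higher and 1 lower in epididymal fat, beside 12.8% of all genes, and on high fat 2 passed, 1 higher and 1 lower, beside 8.34%; the medians were 0.28 and 0.25. Averaged over the diets 6 of 17 passed, 4 higher and 2 lower, beside 21.8% of all genes. Foxo1, the transcription factor that AKT signalling downstream of TEK keeps out of the nucleus and that drives Angpt2, averaged 2288 ± 342 and 1984 ± 153 normalized counts in mesentery of chow and high fat mice, and 1406 ± 162 and 901 ± 242 in epididymal fat (SD, n = 3). It was lower in epididymal fat by a log2 difference of -0.70 on chow (SE 0.20, adjusted p 0.0348) and -1.17 on high fat (SE 0.20, adjusted p 0.00293). The Foxo1 call on high fat held in 18 of 18 alternatives. On chow it held in 9 of 18. It was lost with edgeR (adjusted p 0.137), with the same total and with a replicate block by sample number. A fit of the compared groups alone lost the chow call too. So did leaving out mesentery replicate A or B or any 1 epididymal library. Pik3ca, a catalytic subunit of PI3 kinase, had a log2 difference of -0.38 over the diets (adjusted p 0.0348) that passed in 12 of 23 alternatives. At the same pan-endothelial level it was -0.11 (adjusted p 0.754). The Pik3ca call was also lost with the same total and with the replicate block. Leaving out mesentery replicate A or B on either diet lost it too. So did leaving out epididymal replicate A or B on chow, or epididymal replicate B or C on high fat.

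Higher in epididymal fat were Itgb1, an integrin subunit (0.56 over the diets, passing in 18 of 23 alternatives), the phosphatase gene Ptpn11 (0.75, in 23 of 23), the ligand gene Angpt4 and the adaptor gene Dok2, which binds activated TEK and is also expressed in blood cells. Angpt4 stood at 2.28 to 40.8 normalized counts in chow mesentery and 86.8 to 144 in chow epididymal fat, with a log2 difference of 3.64 (SE 0.90, adjusted p 0.0178), against 0.66 on high fat (adjusted p 0.801). The chow call of Angpt4 held in 12 of 18 alternatives, with values from 2.88 to 4.93. It was lost with edgeR (adjusted p 0.0936), in a fit of the compared groups alone and without mesentery or epididymal replicate A or B. Over the diets the Angpt4 call held in 12 of 23 and was lost with edgeR, with DESeq2 and with the same total. It was also lost without mesentery replicate A or B on chow, mesentery replicate A or C on high fat, or epididymal replicate A or B on either diet. The Itgb1 call was lost with edgeR and without epididymal replicate A or B on chow or epididymal replicate B or C on high fat. Dok2 differed by 3.80 on chow and 4.95 on high fat (adjusted p 0.0323 and 0.0126). The Dok2 calls held in 11 of 17 alternatives on chow, with values from 2.55 to 5.06, and in 13 of 17 on high fat; DESeq2 gave no adjusted p. On chow a fit of the compared groups alone, and leaving out any mesenteric library or epididymal replicate A or B, ended the call. On high fat edgeR, and leaving out mesentery replicate A or B or epididymal replicate C, ended it. The highest Dok2 group, 1356 to 4559 in high fat epididymal fat, was also the one with the highest macrophage sum, whose part in the Dok2 values was not tested.

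Of 25 further S1P genes, 24 were tested. On chow 4 passed, 1 higher and 3 lower in epididymal fat, beside 12.8% of all genes, and on high fat 4 passed, 2 higher and 2 lower, beside 8.34%; the medians were 0.31 and 0.24. Averaged over the diets 10 of 24 passed, beside 21.8%. Plpp1 and Plpp3, 2 genes of lipid phosphatases that break down S1P and related lipids outside the cell, were lower on both diets. Plpp1 averaged 26613 ± 7503 and 26189 ± 3963 normalized counts in mesentery of chow and high fat mice and 5745 ± 783 and 3547 ± 1097 in epididymal fat (SD, n = 3), with log2 differences of -2.18 (SE 0.28, adjusted p 0.000232) and -2.92 (SE 0.28, adjusted p 2.97e-05). Plpp3 averaged 30029 ± 3308 and 24632 ± 3371 in mesentery and 14978 ± 3268 and 6391 ± 2210 in epididymal fat, with log2 differences of -1.02 (adjusted p 0.0289) and -2.00 (adjusted p 0.000703). The Plpp3 call on chow held in 12 of 18 alternatives. It was lost with edgeR, in a fit of the compared groups alone and without mesentery replicate A or B or epididymal replicate B or C. For both genes all epididymal libraries lay below all mesenteric ones.

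Over the diets the G protein gene Gnaq (-0.72) and the S1P phosphatase gene Sgpp2 (-1.89) were lower too. Sgpl1, whose lyase degrades S1P irreversibly, was higher by 1.51 over the diets and by 2.14 on high fat (SE 0.36, adjusted p 0.00281). The ceramidase gene Asah1 (0.55), the ceramide synthase gene Cers2 (0.64), the lipid phosphatase gene Plpp2 (1.01) and the receptor gene S1pr2 (1.32) were also higher. Rac1, a small GTPase that tightens junctions, had a difference of 0.41 (adjusted p 0.0464). The Plpp2 call held in 15 of 23 alternatives and was lost with the same total. It was also lost without mesentery replicate A or B on either diet, epididymal replicate B on either diet or epididymal replicate C on high fat. The Rac1 call held in 9 of 23. It was lost with edgeR (adjusted p 0.102), with the same total, with the replicate block and with no filter on low values. Leaving out any 1 library other than chow epididymal replicate C and high fat epididymal replicate A lost it too. The other calls over the diets in this list held in every alternative run. In both wider lists 0 genes passed in a diet contrast or in the interaction. At an unadjusted limma p under 0.05 there were 3 of 17 and 2 of 24 genes in mesentery (6.15% of all genes) and 6 and 5 in epididymal fat (6.94%), and the one nearest the threshold in epididymal fat was Plpp3 (log2 difference -1.27, SE 0.28, adjusted p 0.0723).

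**Figure D5:**
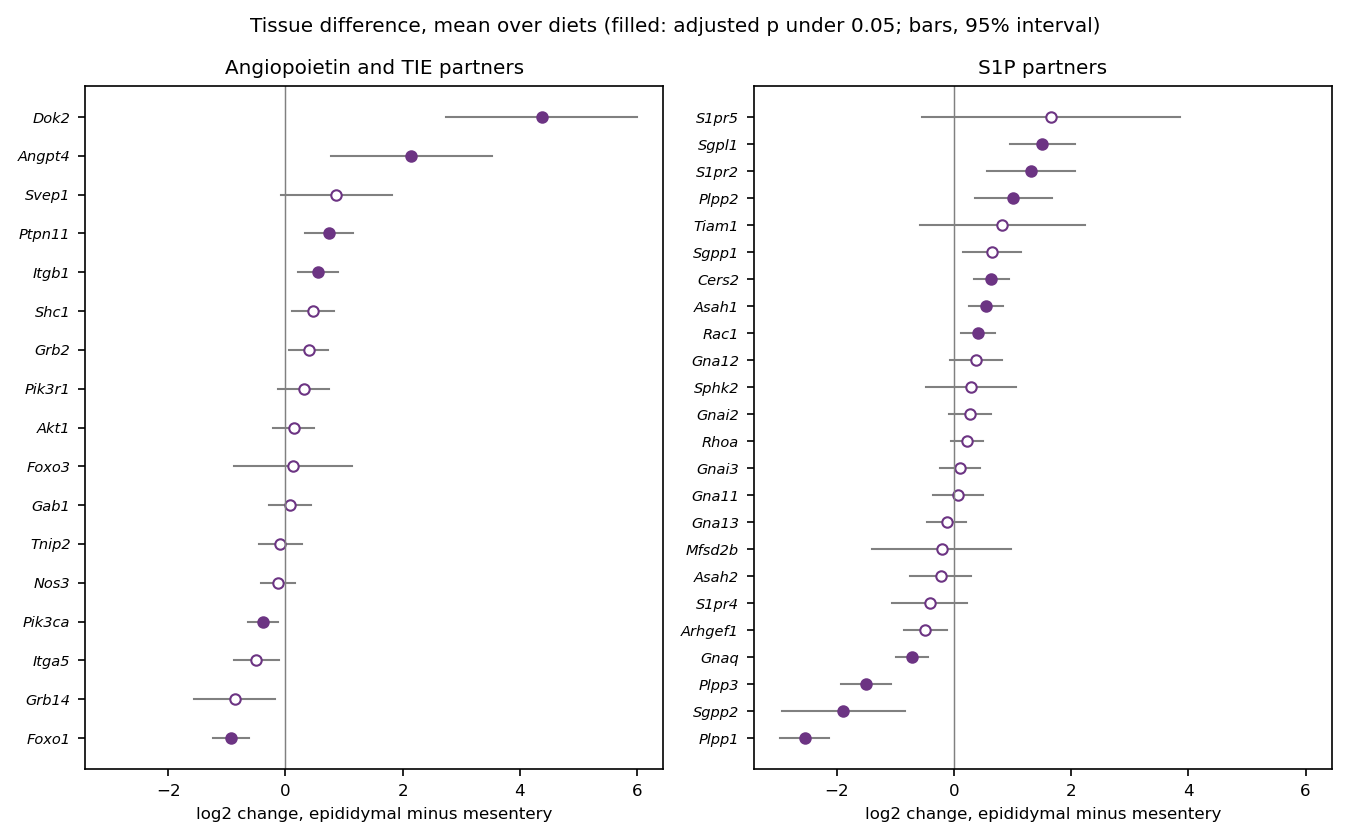
Epididymal minus mesentery difference, averaged over the diets, for the 17 angiopoietin and TIE partners and the 24 further S1P genes that were tested, on the log2(normalized count + 1) scale; bars are 95% intervals over 12 libraries and filled points have an adjusted p under 0.05. Plpp1, Sgpp2 and Plpp3 lie farthest left and Dok2 and Angpt4 are the filled points farthest right.

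Levels of different genes were compared per kilobase of exon, with exon lengths from GENCODE M21. S1pr1 had the highest level of the 9 genes in each group, between 2123 ± 475 normalized counts per kilobase in high fat epididymal fat and 2339 ± 239 in chow epididymal fat (SD, n = 3). In mesentery on chow Tie1 (1253 ± 145), Tek (1049 ± 175) and Ptprb (975.1 ± 266) came next. They were followed by Spns2 (418 ± 73.8), Angpt2 (212 ± 32.2), S1pr3 (8.08 ± 1.48), Sphk1 (7.08 ± 7.38) and Angpt1 (5.06 ± 5.32). The SD ranges of Tie1, Tek and Ptprb overlapped, as did those of the last 3. The SD is the spread between libraries, and differences between genes within a library were not tested. In epididymal fat on chow S1pr1 stood at 2339, Tie1 at 656 ± 91.0, Tek at 507 ± 47.6, Ptprb at 445 ± 27.3, Angpt2 at 324 ± 52.98, Spns2 at 150.4 ± 36.6, S1pr3 at 98.7 ± 39.0, Sphk1 at 47.2 ± 31.7 and Angpt1 at 10.1 ± 1.59. Angpt2 thus stood below Spns2 in mesentery and above it in epididymal fat. Sphk2, the other sphingosine kinase gene, lay between 35.9 and 44.9 in all 4 group means.

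Among themselves, the genes were compared by the root mean square difference of their log2 values over the 12 libraries, each gene centred on its own mean. Ptprb and Tek were the nearest pair (0.14), followed by Tek and Tie1 (0.17), Ptprb and Tie1 (0.21) and Spns2 and Tie1 (0.25). Angpt2 and S1pr1 were 0.31 apart. Such distances share library composition and depth and are given as a description only.

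Among all named genes with a mean of at least 100, the nearest to Tek were Pecam1 and Adcy4 (0.10 and 0.11), to Tie1 Hoxb5 and Snrk (0.12 and 0.15), to Ptprb Itga1 and Tek (0.13 and 0.14), and to Spns2 Slc43a3 and Ephb4 (0.14 and 0.15). Angpt2 was nearest to Cavin2 and Ephx1 (0.13 and 0.14) and S1pr1 to Stx12 and Ccdc47 (0.09 and 0.10). S1pr3 was nearest to Des (0.29), a muscle filament gene of the mural list, and to Ccdc80 (0.36). Des averaged 87.1 and 155 normalized counts in mesentery of chow and high fat mice and 1167 and 546 in epididymal fat. Angpt1 and Sphk1 had no close neighbour: the nearest were Pde3b and Abca5 at 0.63 and 0.76, and Sfrp1 and Foxs1 at 0.83.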

How the data were processed

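Values are normalized counts per gene deposited by the authors, a signal that is never negative. The submitters' processing notes name STAR 2.7.9a, featureCounts, Subread, DESeq2 1.34.0 and the mouse build mm39, with no roles; annotation and strand use are not given in the sources used here. Every value was a whole number of reads (tolerance 0.001) times 1 step per library, so 100% of values were recovered as reads; the lowest gene total was 51 reads. Differences were tested with limma 3.58.1 under R 4.3.3, using log2(normalized count + 1) and eBayes with trend, for 22238 genes with a mean of at least 10, with 1 mean for each of 4 groups and Benjamini-Hochberg adjustment over all genes of a contrast; "passed" means an adjusted p under 0.05. It was tested on simulated data. Adding 1 shrinks ratios of low values. Where a library lies near 0, the log2 difference can also exceed or oppose the ratio of the group means. Sphk1 on high fat differed by 2.69 between tissues, with means of 80.3 in mesentery and 133 in epididymal fat. Its diet difference in mesentery was -0.11, with means of 33.8 on chow and 80.3 on high fat. Alternatives included edgeR 4.0.16 and DESeq2 1.42.0 on recovered reads, other pseudocounts, filters and scalings, and each library left out. The genes and lists were chosen with earlier results of these data known. Text names all 9 genes, partners passing in at least 1 contrast, and the 2 nearest patterns per gene; the others are counted only. Cell panels are summed normalized counts. Exon lengths, exon overlaps and promoters come from GENCODE M21 and RefSeq on GRCm38.p6, not the build of the counts. Apom was not used here, and 1 further partner gene is not reported here.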

Additional observations from a re-analysis of the deposited data

How the results depend on the processing

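Shallow libraries and low genes limit precision: Angpt1 and Sphk1 had 0 reads in 1 library, so their fitted differences depend on the pseudocount. For 93 single-gene results, 1881 alternative values were computed, 6 of them from DESeq2 with no adjusted p; of the others 1683 kept direction and side of the threshold, 115 lost a call, 11 gained one and 66 changed sign, none of them with an adjusted p under the threshold on either side. S1pr3 and Spns2 passed between tissues on both diets under every alternative run. The same-total scaling moved the median of all genes on high fat between tissues from 0.06 to -0.12, and the share of passing genes that were higher from 58.9% to 35.3% (on chow from 57.2% to 67.3%). Same-numbered samples did not all deviate together (tissue correlations 0.03, 0.53 and 0.58 on chow, -0.15, 0.15 and -0.11 on high fat). Samples of unlike number reached 0.52 on chow, so these correlations cannot settle whether the number marks the same mice. The main fit did not use it as pairing. A replicate block was also run, by number for tissue and by letter for diet. With it 5, 5 and 6 of the 9 genes passed for tissue on chow, on high fat and over the diets, and 0 for diet. The causes of the changes below were not tested.

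With edgeR, 3 genes passed between tissues on chow and 3 on high fat; the interaction was 0.028 for Tek, -0.46 for Angpt1 and 0.11 for Ptprb, and the Sphk1 diet difference was 1.33 in mesentery and 0.27 over the tissues. With DESeq2 these were 0.035, -0.39, 0.11, 1.25 and 0.25. With a pseudocount of 5 the Angpt1 interaction was -0.10 and Sphk1 in mesentery 0.38. With the same total, S1pr1 between tissues over the diets was -0.029. At the same pan-endothelial level, the diet difference in epididymal fat was 0.12 for Tek and 0.31 for S1pr1, the tissue difference on high fat 0.32 for Angpt2 and 0.38 for S1pr1, the S1pr1 diet difference over the tissues 0.22, and the interaction 0.35 for Tek, 0.37 for Ptprb, 0.19 for S1pr1 and 0.22 for Spns2. From the libraries numbered 50 to 53, the interaction was 0.23 for Tek, -0.46 for Angpt1, 0.45 for Ptprb and 0.017 for Spns2, the tissue difference on high fat 0.062 for Angpt2 and 0.14 for S1pr1, and the diet difference -0.0025 for Angpt2 in mesentery and 0.012 for S1pr1 over the tissues.

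Leaving out 1 library at a time, 3 to 5 genes passed between tissues on chow and 3 to 5 on high fat. The interaction ran from -0.27 to 0.19 for Tek, -0.83 to 1.92 for Angpt1, -0.31 to 0.24 for Ptprb, -0.30 to 0.012 for S1pr1, -2.57 to 1.24 for Sphk1 and -0.42 to 0.13 for Spns2. The diet difference in mesentery ran from -0.13 to 0.19 for Angpt2, -0.016 to 0.075 for S1pr1 and -1.73 to 2.08 for Sphk1, and in epididymal fat from -0.28 to 0.039 for S1pr1 and -1.09 to 0.020 for Sphk1. Over the tissues it ran from -0.12 to 0.034 for S1pr1 and -1.11 to 0.79 for Sphk1. The tissue difference on high fat ran from -0.40 to 0.077 for Angpt2 and -0.19 to 0.13 for S1pr1, and S1pr1 over the diets from -0.038 to 0.12. The Angpt2 over Angpt1 log2 ratio, diet in epididymal fat, ran from -0.068 to 0.68.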
